A study of Mus musculus with 8 samples.

Results

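The genes described are the calcium-transporting ATPases of the plasma membrane (Atp2b1, Atp2b2, Atp2b3 and Atp2b4), of the endoplasmic reticulum (Atp2a1, Atp2a2 and Atp2a3) and of the Golgi (Atp2c1 and Atp2c2). Each of the 9 genes had 1 transcript cluster, the unit for which the array gives a value, and none of these 9 clusters carried a second gene symbol. They are 9 of the 41345 clusters in the table. In RefSeq the genes lie apart, on chromosome 10 (Atp2b1), 6 (Atp2b2), X (Atp2b3), 1 (Atp2b4), 7 (Atp2a1), 5 (Atp2a2), 11 (Atp2a3), 9 (Atp2c1) and 8 (Atp2c2). The family was taken whole by gene name, but it was selected on the comparison described here, in which Atp2b4 was among the larger rises, so the members' differences are a description and no p-value is given for them.

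Expression was measured on Affymetrix mouse gene arrays in AML12 cells, with 4 arrays of cells that stably express Zfp125, a zinc finger gene, and 4 arrays of cells that carry the empty vector (EV). AML12 is a hepatocyte line derived from a mouse transgenic for human TGF alpha, so cells of both groups share that transgene. Both groups were selected with G418 and grown in control medium. The labels do not state whether the replicates are separate cultures, nor whether each stable line is 1 clone or a pool. The SDs therefore describe the spread between these arrays, which may be technical. Each SE of a difference is from the limma fit to the same arrays, which draws a cluster's variance toward that of all clusters. It can thus differ from what the gene's own arrays give. Without that step it was 0.04 rather than 0.08 for Atp2b2, and 0.21 rather than 0.19 for Atp2a1. Zfp125 itself is not analysed here, so its level gives no check of the group labels.

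Calcium pumps are P-type ATPases, which use ATP to move calcium out of the cytosol against its gradient. Plasma membrane pumps (PMCA) expel calcium from the cell and are activated by calmodulin, the pumps of the sarcoplasmic or endoplasmic reticulum (SERCA) refill the store from which hormones release calcium, and the secretory pathway pumps (SPCA) load the Golgi with calcium and manganese. In hepatocytes, hormone-evoked calcium signals drive glycogen breakdown and bile secretion.

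All values below are log2 expression values as deposited. Array medians were 4.32 to 4.37, and Pearson correlations between arrays over all clusters were 0.977 to 0.984. All 5 measured hepatocyte markers (Alb, Ttr, Apoa1, Hnf4a and Serpina1c) lay above 5.64, the 75th percentile of cluster means. Their summed level was 50.94 to 51.69 in Zfp125 cells and 52.71 to 54.04 in EV cells, without overlap, and its part in the results was not tested. Alb (-0.48), Apoa1 (-0.61), Hnf4a (-0.38) and Serpina1c (-0.67) had negative differences and Ttr (0.08) a positive one. In limma 0 of these 5 were called over all clusters, 4 had an unadjusted p under 0.05, and 3 were called in a fit on genes only. Of 32 measured markers of 7 other cell types, 12 lay below the median cluster and 8 lay above the 75th percentile (Myog, Acta1, Tnnt2, Syt1, Cd14, Krt19, Krt7 and Sox9). Their summed levels overlapped between the groups in each of the 7 types. In cultured cells, fewer cells of a type and less RNA per cell cannot be told apart.

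Atp2b4 was the 1 member whose groups did not overlap. Its pump, PMCA4, is a broadly expressed plasma membrane calcium pump, and mouse sperm need it for motility. The gene spans bases 133702674 to 133801059 of chromosome 1 (GRCm38.p6, RefSeq). The RefSeq promoter table gives 1 window for it, 250 bases before to 50 after an annotated start, and that start lies inside the gene's span rather than at its outer end. It is shown beside a window of Atp2b1, the other widely expressed plasma membrane pump, whose groups overlapped. Capitals mark the GC box GGGCGG on either strand. The windows are chr1:133753698-133753997 on the minus strand and chr10:98914392-98914691 on the plus strand, both GRCm38.p6.
Atp2b4: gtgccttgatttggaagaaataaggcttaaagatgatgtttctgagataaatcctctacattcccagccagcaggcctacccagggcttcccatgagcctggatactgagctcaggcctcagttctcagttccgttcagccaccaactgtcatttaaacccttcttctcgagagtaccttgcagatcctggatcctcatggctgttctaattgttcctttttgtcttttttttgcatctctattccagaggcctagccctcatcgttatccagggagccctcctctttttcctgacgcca
Atp2b1: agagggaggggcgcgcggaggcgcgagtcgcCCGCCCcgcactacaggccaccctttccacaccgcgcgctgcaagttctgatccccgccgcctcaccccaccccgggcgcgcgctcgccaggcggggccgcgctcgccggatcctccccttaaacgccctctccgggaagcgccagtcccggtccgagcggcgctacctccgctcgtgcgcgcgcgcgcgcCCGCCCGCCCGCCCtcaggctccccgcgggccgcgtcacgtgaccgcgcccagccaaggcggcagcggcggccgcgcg

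The Atp2b4 window held 4 CpG dinucleotides and was 47.7% G and C, while the Atp2b1 window held 54 CpG dinucleotides and was 79.3% G and C. Over 32851 such windows of 300 bases the median was 7 CpG and 52.7% G and C. Searched on both strands, the TATA box letters (TATAAA), the CCAAT box letters and the GC box letters given above were in none of these 300 bases for Atp2b4. The Atp2b1 window held 4 GC boxes, 3 of them overlapping each other, and no other motif of the 3. Of all windows, 13.6% held a TATA box, 37.4% a CCAAT box and 35.7% a GC box. Of the 9 members, 6 had a window in the table, 10 windows in all. A second Atp2b1 window held 45 CpG and 3 GC boxes. Few CpG were not particular to Atp2b4. The Atp2a1 window also held 4 CpG and no GC box, with 1 CCAAT box. Atp2b2 and Atp2c1 each had a window of 8 CpG with none of the 3 motifs. The groups of all these other genes overlapped, and no relation between windows and expression was tested. These matches describe letters only.

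Atp2b4 had values of 6.23, 6.36, 6.24 and 6.07 in Zfp125 cells, against 5.16, 5.45, 5.54 and 5.59 in EV cells. Every Zfp125 array lay above every EV array, with a gap of 0.48 between the lowest Zfp125 and the highest EV value. The means were 6.23 ± 0.12 in Zfp125 cells and 5.43 ± 0.19 in EV cells (SD, n = 4 each), a difference of 0.79 ± 0.12 (SE) or 1.73-fold. By size this was the 142nd largest difference upward among all 41345 clusters, and the 10th largest among the 22180 genes, each represented by its brightest cluster. Groups did not overlap, with Zfp125 higher, for 3.2% of all clusters.

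**Figure D1:**
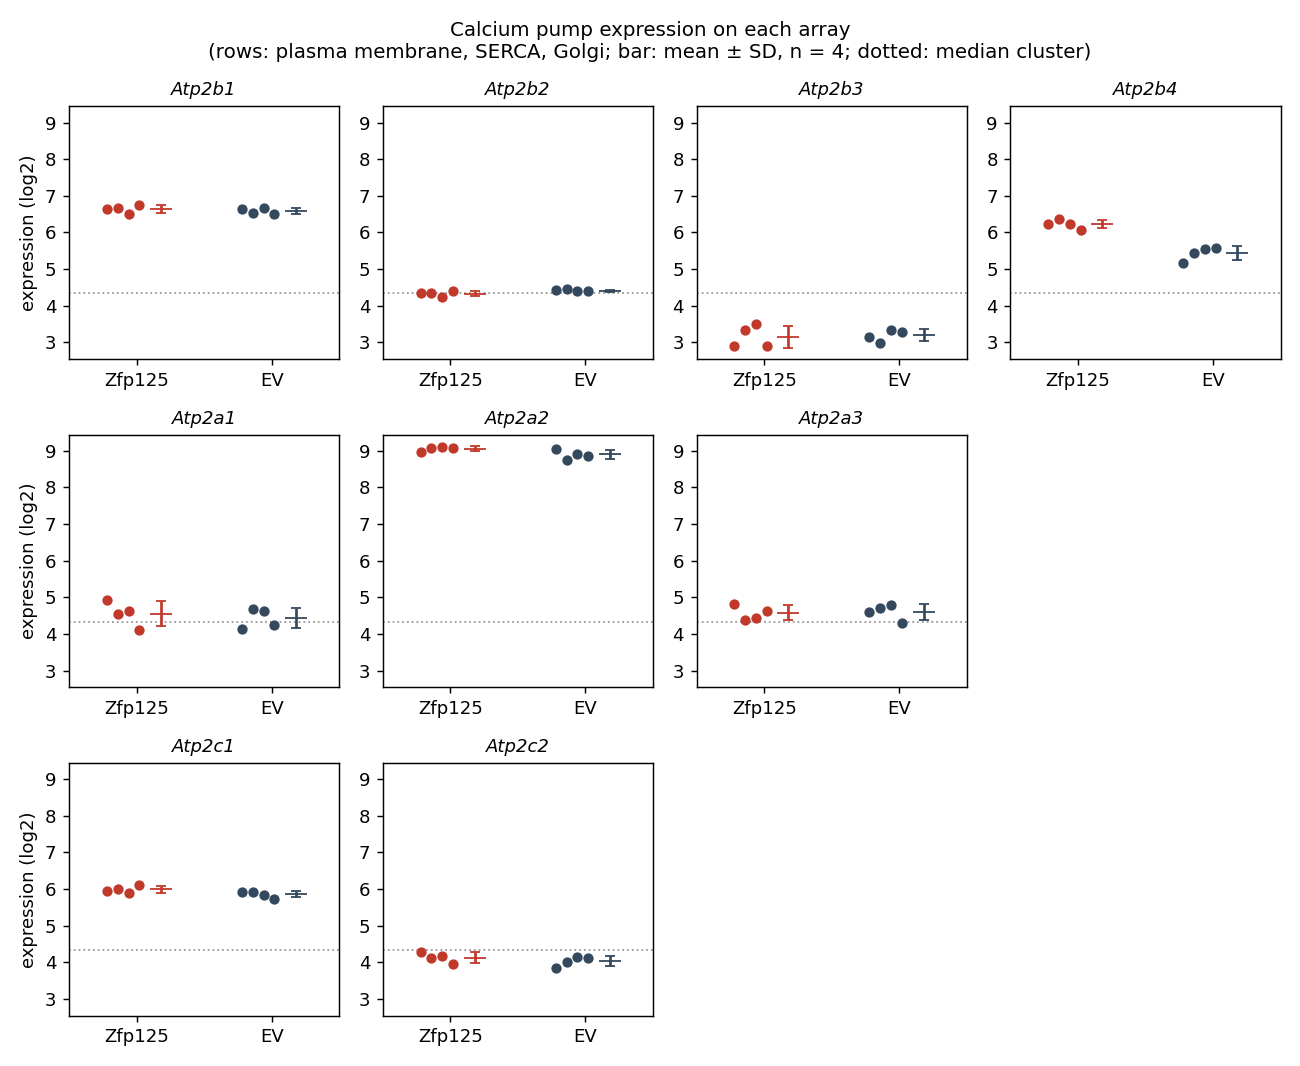
Expression (log2) of the 9 calcium pumps on each array, with Zfp125 cells left of EV cells, 1 point per array and bars for the mean ± SD (n = 4). Atp2b4 is 6.07 to 6.36 in Zfp125 cells and 5.16 to 5.59 in EV cells, and the groups overlap for the other 8 genes.

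The other plasma membrane pumps had smaller differences. Atp2b1, which encodes the housekeeping pump PMCA1, had 6.64, 6.66, 6.50 and 6.75 in Zfp125 cells, against 6.65, 6.52, 6.67 and 6.50 in EV cells. The values interleaved, and the difference of 0.05 ± 0.09 was smaller than the SD within either group (0.11 in Zfp125 cells and 0.09 in EV cells). Atp2b2, a pump of neurons and of the hair cells of the inner ear, had 4.34, 4.35, 4.24 and 4.40 in Zfp125 cells, against 4.42, 4.45, 4.39 and 4.40 in EV cells. Here 3 of the 4 Zfp125 arrays lay below every EV array, with a difference of -0.08 ± 0.08. Atp2b3, another neuronal pump, had 2.91, 3.34, 3.49 and 2.90 in Zfp125 cells, against 3.16, 2.98, 3.35 and 3.29 in EV cells. It was dim, below the 4.34 median of cluster means, and its groups overlapped widely, with a difference of -0.04 ± 0.15. The difference of Atp2b4 was larger than those of the 3 other genes of its own branch, and this inequality between members was not tested.

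Among the endoplasmic reticulum pumps, Atp2a2 had the largest difference. It encodes SERCA2, the store pump of most non-muscle cells and of heart. Its values were 8.96, 9.08, 9.11 and 9.07 in Zfp125 cells, against 9.05, 8.76, 8.92 and 8.87 in EV cells. Of the Zfp125 arrays, 3 of 4 lay above every EV array and the remaining one lay within the EV range, with a difference of 0.16 ± 0.09 or 1.11-fold. Atp2a1, the pump of fast skeletal muscle, had 4.94, 4.55, 4.62 and 4.12 in Zfp125 cells, against 4.15, 4.69, 4.63 and 4.26 in EV cells. It had the widest spread of the 9 genes, with SDs of 0.33 in Zfp125 cells and 0.27 in EV cells, and its difference of 0.12 ± 0.19 lay within it. Atp2a3, a pump of blood cells, endothelium and some epithelia, had 4.83, 4.39, 4.45 and 4.63 in Zfp125 cells, against 4.59, 4.72, 4.79 and 4.31 in EV cells. The groups covered nearly the same range, with a difference of -0.03 ± 0.14.

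Both Golgi pumps had small positive differences with overlapping groups. Atp2c1, the widely expressed pump SPCA1 whose human gene is mutated in Hailey-Hailey disease, had 5.95, 6.0, 5.90 and 6.11 in Zfp125 cells, against 5.93, 5.91, 5.85 and 5.73 in EV cells. All but 1 Zfp125 array lay above the EV range, and the difference was 0.13 ± 0.09. Atp2c2, the pump SPCA2 of secretory epithelia, had 4.28, 4.11, 4.18 and 3.95 in Zfp125 cells, against 3.86, 4.02, 4.15 and 4.12 in EV cells. It lay below the median cluster, with 2 of 4 Zfp125 arrays above the EV range and a difference of 0.10 ± 0.10.

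**Figure D2:**
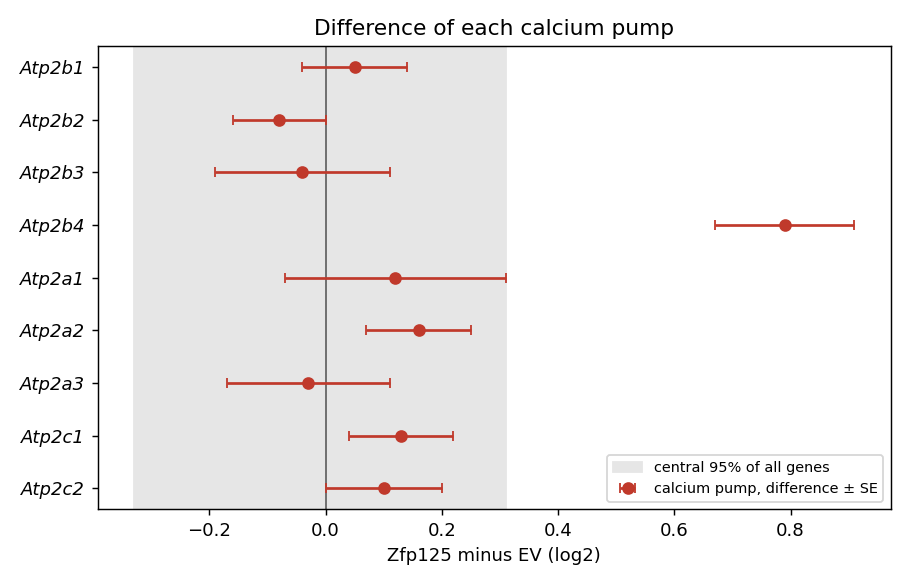
Difference in expression, Zfp125 minus EV cells (log2), for each calcium pump, with bars for the moderated standard error from limma. The grey band spans the central 95% of differences over 22180 genes, from -0.33 to 0.31. Atp2b4 lies outside the band at 0.79, and the other 8 lie between -0.08 and 0.16.

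Of the 9 members, 6 had a positive and 3 a negative difference, with a median of 0.10, beside a median of -0.00268 over all 22180 genes. In limma with adjustment over all clusters, 1 of 9 was called, Atp2b4, where 0.148% of all clusters were called in either direction and 0.0242% were called higher. Since the family was selected on this comparison, nothing is read from that count. The call ended when any 1 of the 8 arrays was left out, without variance moderation and with the replicate number as a block, although the difference kept its sign at 0.70 to 0.84. It held in the fit on genes only, in which 1.08% of genes were called.

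**Figure D3:**
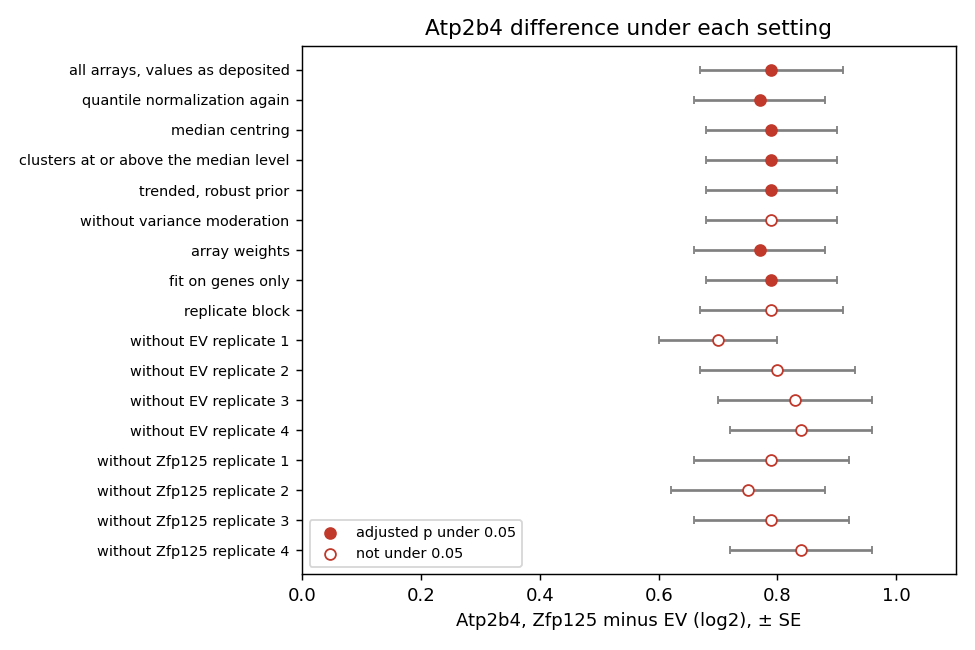
Difference of Atp2b4, Zfp125 minus EV cells (log2), under each way of processing the values. Bars are the standard error from each fit, and points are filled where the adjusted p was under 0.05. The difference runs from 0.70 without EV replicate 1 to 0.84 without EV replicate 4 or Zfp125 replicate 4. The family was selected on this comparison, so the filled points are a description only.

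Genes next to Atp2b4 on chromosome 1 were set beside it. Only genes with a cluster of a single gene symbol were considered, so a gene measured together with others may have been passed over. On the side of lower coordinates the nearest such genes were Sox13, Snrpe and Lax1, with differences of 0.09 ± 0.09, -0.09 ± 0.14 and -0.01 ± 0.15. On the other side they were Optc, Prelp and Fmod, with differences of 0.09 ± 0.16, -0.14 ± 0.20 and -0.06 ± 0.12. None of these 6 genes passed the test (limma adjusted p = 0.826 to 0.992), and the groups overlapped for each of them.

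The genes whose values over the 8 arrays, centred on their own mean, lay nearest to those of Atp2b4 were found by root mean square distance in log2 units. They were Sema3c (0.129) and Ntn4 (0.132), which encode secreted guidance proteins, and the small RNA genes Snord1b (0.149), Scarna10 (0.149) and Snord16a (0.154). The median distance over 22179 genes was 0.445. Sema3c averaged 6.19 ± 0.10 in Zfp125 cells and 5.44 ± 0.10 in EV cells, and Ntn4 averaged 6.49 ± 0.07 in Zfp125 cells and 5.81 ± 0.05 in EV cells (SD, n = 4 each). Both rose in limma (adjusted p = 0.0204 and 0.0157), while the 3 small RNA genes had differences of 0.55 to 0.74 that did not pass (adjusted p = 0.0772 to 0.105). A gene that differs between the groups by about as much as Atp2b4 is near it by construction. The p-values of these nearest genes are therefore a description, and nothing is read from them.

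Beyond the pumps, 9 lists of calcium handling and P-type ATPase genes held 173 genes, of which 153 were measured. In limma 0 of 153 passed after adjustment over all clusters, where 0.221% of genes were called. At an unadjusted p under 0.05 there were 14 of 153, or 9.15%, beside 9.11% of all genes. These 14 were 2 higher and 1 lower in Zfp125 cells among pump partners, 1 lower among exporters, 2 higher and 2 lower among plasma membrane channels, 1 higher and 2 lower among calcium-binding proteins, and 2 higher and 1 lower among other P-type ATPases, with 0 in the remaining 4 lists. The median difference over the 153 genes was -0.00361. Groups did not overlap, in either direction, for 16 of 153 genes. The same share over all genes is not given here, so nothing is read from that count or from single genes without overlap. Dlg1, Slc24a2, Slc8a2, Letm1, Tmem30a and Atp10a are among these genes, beside those described below as not overlapping. In the fit on genes only, 2 of 153 passed, both lower in Zfp125 cells, beside the 1.08% of genes called there.

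**Figure D4:**
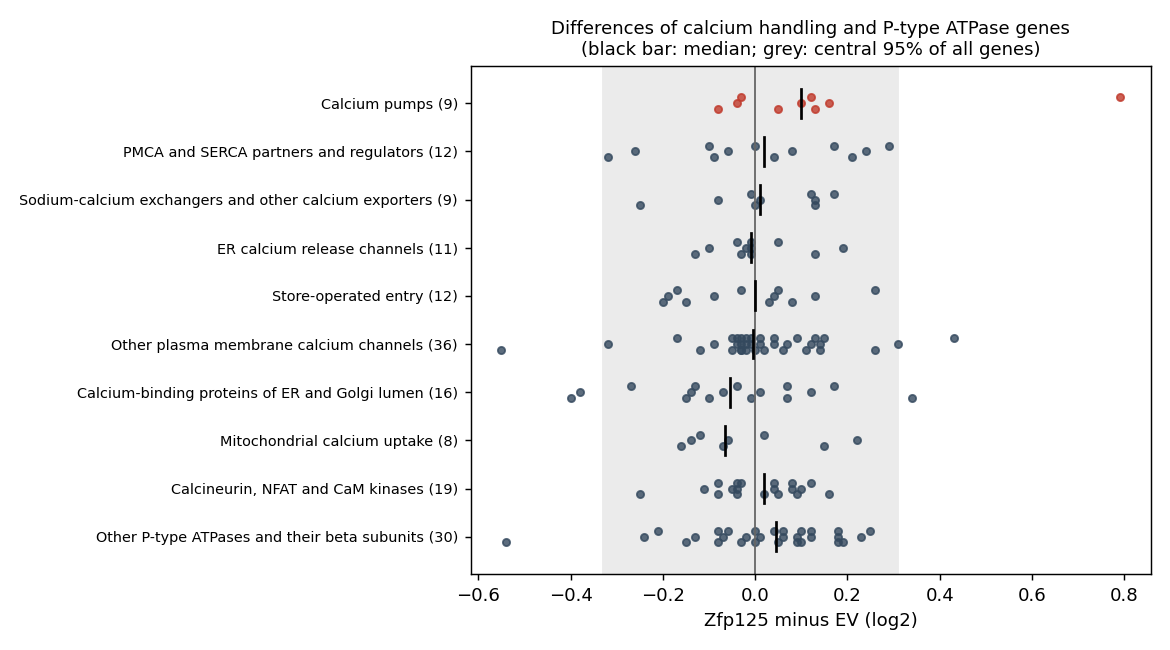
Differences in expression, Zfp125 minus EV cells (log2), of the 9 calcium pumps (red) and of the measured genes of each list (dark points), 1 point per gene, with a black bar at the median and the number of genes in brackets. The grey band spans the central 95% of all genes, from -0.33 to 0.31, and the list points run from -0.55 to 0.43 while Atp2b4 lies at 0.79.

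Partners and regulators of the pumps showed 0 of 12 measured genes called, 6 with positive and 6 with negative differences. Nptn encodes neuroplastin, an obligatory subunit of plasma membrane calcium pumps. It had 7.95, 7.90, 8.10 and 8.01 in Zfp125 cells, against 8.0, 7.56, 7.70 and 7.53 in EV cells. EV replicate 1 lay within the Zfp125 range and the other 3 EV arrays lay below it, with a difference of 0.29 ± 0.12 (limma adjusted p = 0.462). Basigin, encoded by Bsg and chosen after its values were seen, is the other such subunit. It had 10.47, 10.51, 10.46 and 10.40 in Zfp125 cells, against 10.34, 10.25, 10.25 and 10.33 in EV cells, groups that did not overlap, with a difference of 0.17 ± 0.08 that did not pass (limma adjusted p = 0.545). The scaffold proteins Dlg1 and Cask, which can bind the tail of plasma membrane pumps, had differences of -0.32 ± 0.11 and 0.24 ± 0.10 (limma adjusted p = 0.38 and 0.48).

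The other routes of calcium out of the cytosol and into the Golgi had 0 of 9 measured genes called and a median difference of 0.0122. Tmem165, a Golgi protein of calcium and manganese balance, averaged 7.06 ± 0.07 in Zfp125 cells and 6.89 ± 0.11 in EV cells, with overlapping groups. The exchanger genes Slc24a2 and Slc8a2 had differences of -0.25 ± 0.10 and 0.13 ± 0.08. The limma adjusted p-values of these 3 genes were 0.479 to 0.667.

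Channels that release or admit calcium, the counterpart of the pumps, were likewise not called. Of 11 release channels of the endoplasmic reticulum and lysosome, 0 passed, with Tmco1 at 0.19 ± 0.11, the inositol trisphosphate receptor Itpr2 at 0.13 ± 0.09 and Mcoln3 at -0.13 ± 0.11. Of 12 genes of store-operated entry and TRPC channels, 0 passed, with Trpc4 at 0.26 ± 0.12, the channel subunit Orai1 at -0.20 ± 0.10 and Trpc6 at -0.19 ± 0.11. In both lists adjusted p-values from limma were at least 0.53. Trpc4 and Trpc6 were dim, below the median cluster.

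Among 36 other plasma membrane calcium channel genes, 18 had positive and 18 negative differences and 0 were called. Cacna1e, the pore subunit of R-type voltage-gated channels, had 4.85, 5.11, 5.15 and 5.05 in Zfp125 cells, against 5.94, 5.41, 5.51 and 5.50 in EV cells. All Zfp125 arrays lay below the EV arrays, with a difference of -0.55 ± 0.13 (limma adjusted p = 0.187), and in the fit on genes only it fell (limma adjusted p = 0.0483). P2rx4, an ATP-gated channel, averaged 7.80 ± 0.09 in Zfp125 cells and 8.12 ± 0.07 in EV cells. Cacna1h, of T-type channels, averaged 6.26 ± 0.12 in Zfp125 cells and 5.83 ± 0.24 in EV cells (SD, n = 4 each). The groups did not overlap for either, and neither passed (limma adjusted p = 0.235 and 0.309).

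Calcium-binding proteins of the endoplasmic reticulum and Golgi lumen, where SERCA and SPCA deliver calcium, had 0 of 16 called. Hspa5, the chaperone BiP, which also binds calcium in the store, had 8.09, 8.06, 8.26 and 8.21 in Zfp125 cells, against 8.66, 8.47, 8.60 and 8.50 in EV cells. Each Zfp125 array lay below each EV array, with a difference of -0.40 ± 0.09 that did not pass (limma adjusted p = 0.156, and 0.0558 in the fit on genes only). Nucb2 and Rcn2, EF-hand proteins of the secretory pathway, had differences of -0.38 ± 0.09 and 0.34 ± 0.10, also without overlap of the groups and also not passing (limma adjusted p = 0.191 and 0.326). The largest values of the list therefore pointed in both directions.

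In mitochondria, 0 of 8 measured uptake genes were called, with Letm1 at -0.14 ± 0.08, Smdt1, a subunit of the uniporter complex, at -0.16 ± 0.10 and Micu3, a regulator of the uniporter, at 0.22 ± 0.17. Of 19 genes of calcineurin, NFAT and the calmodulin-dependent kinases, 0 were called, with Nfatc2 at 0.16 ± 0.10, Nfatc1 at 0.12 ± 0.09 and Camk2d at -0.25 ± 0.15. In both lists limma adjusted p-values were at least 0.655.

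The remaining P-type ATPases and their subunits, relatives of the calcium pumps that move other ions or lipids, had 0 of 30 called, 18 with positive and 12 with negative differences. Atp7b, the copper-transporting ATPase that loads ceruloplasmin and exports copper to bile, had 6.53, 6.63, 6.69 and 6.55 in Zfp125 cells, against 7.29, 7.06, 7.0 and 7.19 in EV cells. No values overlapped, and the difference was -0.54 ± 0.09, or 0.69-fold (limma adjusted p = 0.0802). In the fit on genes only Atp7b fell (limma adjusted p = 0.0145). Tmem30a, the partner subunit of phospholipid flippases, and Atp10a, a flippase, had differences of 0.25 ± 0.10 and 0.18 ± 0.08, with limma adjusted p-values of 0.435 and 0.522.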

How the data were processed

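RNA of 8 AML12 samples (4 Zfp125, 4 EV) was measured on Affymetrix arrays. The deposited values are log2 expression, 1 per transcript cluster and array; that scale was read from the values. Per the submitters' processing notes, they were made in Affymetrix Expression Console with Transcriptome Analysis Console. How background was corrected and arrays were normalized is not given in the sources used here. The number of arrays limits the precision. Detection calls were not used.

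Of 41345 clusters, 23521 had 1 gene symbol, 1814 several and 16010 none; symbols were updated through Entrez identifiers to the GRCm38.p6 RefSeq table (23328 matched). A gene was represented by its brightest cluster (22180 genes). Limma 3.58.1 in R 4.3.3 (lmFit, eBayes; two-sided) was fitted to all 41345 clusters and p-values adjusted by Benjamini-Hochberg over them; calls are at an adjusted p under 0.05. The test was tested on simulated data, drawn independently for each cluster and array, so correlation between genes was not covered. Members and lists were chosen with earlier results of these data known. Text names every pump, each list's 3 genes of smallest p and any called, and the 5 nearest profiles. It also names the 3 nearest genes with a cluster of 1 symbol on each side of Atp2b4. Replicate numbers were not taken as pairing: deviations of same-numbered arrays correlated at -0.041 to 0.03. Alternatives covered normalization, centring, a dim-cluster filter, variance moderation, array weights, the features fitted, means of clusters, the replicate block and leaving out arrays. Figures were drawn with matplotlib 3.10.9.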

Additional observations from a re-analysis of the deposited data

Results flagged for a closer look

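No calcium pump had an array standing far from its group. Of 74 groups of 4 arrays examined over the pumps and the named list genes, 3 had 1 array whose gap to its nearest neighbour exceeded Dixon's 95% critical share of the group's range, and chance gives about 1 in 20. Smdt1 was 6.54 on Zfp125 replicate 4, against 6.78 to 6.80 on the other Zfp125 arrays. Nfatc2 was 5.55 on Zfp125 replicate 3, against 5.68 to 5.70. Slc24a2 was 3.39 on EV replicate 2, against 3.21 to 3.23 on the other EV arrays.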

How the results depend on the processing

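The count of called pumps, 1 of 9, was the same with quantile normalization again, median centring, only clusters at or above the median level (7 pumps tested), a trended, robust prior, array weights and the fit on genes only. It was 0 without variance moderation, 0 with the replicate block, where 0 of 41345 clusters were called, and 0 in each of the 8 omissions of 1 array, where 16 to 61 clusters were called in all against 61 with all arrays. In the fit on genes only it was 1 in all 8 omissions of an array, an alternative chosen after seeing the data. Since the family was selected on this comparison, nothing is read from these counts of called pumps. The Atp2b4 difference stayed at 0.70 to 0.84 in the 16 settings run. Atp2b3 (-0.15 to 0.05) and Atp2a3 (-0.12 to 0.04) had both signs, Atp2a1 ran from about 0 to 0.27, and the other 5 pumps kept their sign. The count of called list genes, 0 of 153, was 1 with only clusters at or above the median level and 1 with the trended, robust prior, both Atp7b, and 2 with the fit on genes only and 2 with means of clusters, Atp7b and Cacna1e. It was 0 to 1 when an array was left out of the fit on genes only, with 0 without Zfp125 replicate 1, and 0 in each omission from the fit on all clusters. The fit on genes only tested fewer features and called 240 of 22180 genes, against 61 of 41345 clusters in the fit on all clusters. The 28 named list genes, Bsg among them, kept their direction in all 472 values. They were named for a small p or after their values were seen, and the settings reuse the same arrays. Keeping direction was thus nearly fixed in advance, and nothing is read from it. No detection call was used, so dim clusters such as Atp2b3 and Atp2c2 may hold little signal above background. The same may hold for Atp2b2, Atp2a1 and Atp2a3, which lay just above the median cluster. Among the named list genes, Slc24a2, Trpc4, Trpc6 and Micu3 lay below the median cluster and may also hold little signal.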
